A study of Homo sapiens with 16 samples.

Results

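Exonic sites away from promoters were examined among the binding sites of the hypoxia-inducible factors HIF-1α and HIF-2α. Overlapping peaks of all 16 libraries, with 1 bp in common sufficing, formed 11664 merged sites, and a site was kept when its centre lay in an exon, coding or untranslated, of a protein-coding transcript and between 1000 and 50000 bp from every start of a protein-coding transcript. This left 373 exonic sites, 3.20% of all sites and 9.07% of the 4113 sites in that distance range. A further 2558 sites were centred on an exon within 1000 bp of a start and 28 lay beyond the outer limit, and neither kind was kept. The kept site nearest to a start was one in ODF3B at 1009 bp and the farthest one in EXD3 at 49062 bp, whereas the exonic sites just outside the limits lay at 991 and 52148 bp. The 1975 sites of the same distance range that were centred in an intron served for comparison.

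Binding had been mapped by chromatin immunoprecipitation and sequencing (ChIP-seq) in 4 human cancer cell lines, A549 from lung, HCT116 from colon, PC3 from prostate and T47D from breast. Chromatin was precipitated with rabbit polyclonal antibodies, PM14 against HIF-1α or PM9 against HIF-2α, and each of the 8 combinations of line and antibody had 2 replicate libraries. Cells of every group had been kept in 0.5% oxygen for 16 hours, so that no library of normoxic cells enters any comparison. Each library gave a list of peaks, stretches of DNA that the authors' peak caller scored above its threshold, and the lists held 275 to 4505 peaks. Read totals are not known from the lists, so a missing peak may lie below that threshold.

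HIF-1α and HIF-2α are the oxygen-labile subunits of alternative transcription factors, each of which pairs with HIF-1β and recognises a short core motif, RCGTG (R standing for A or G). Much of their binding is at promoters and enhancers, which mostly lie outside coding sequence. Exons carry the mature transcript, and coding exons are richer in G, C and the dinucleotide CpG than introns. The core motif itself contains a CpG.

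The core motif was located first, within the middle of each site. The middle 200 bp of 206 sites contained RCGTG on either strand, and in 194 of them (94.2%) at least 1 copy lay on exon bases. Because the rule itself centres every site on an exon, that share is a description. The copies nearest the centre of 8 sites are shown, with 30 bases of GRCh37 reference sequence each, because they are exon bases that also carry the HIF core motif. Sequences read 5′ to 3′ on the strand that spells RCGTG, which is given with the position, and the capitals mark that copy.
SLC8A3 coding exon, chr14:70512869-70512898, plus strand: gtgccggccgacACGTGgaactcctgtccc
KLHL31 coding exon, chr6:53516884-53516913, minus strand: tcgccgacggccGCGTGctggtgaccggag
FBXL15 coding exon, chr10:104181938-104181967, plus strand: ccgtcaacgccaACGTGggggacgccgcgg
WNT10A coding exon, chr2:219757550-219757579, plus strand: tgccagctcaagACGTGctggcaggtgacg
TUBGCP2 coding exon, chr10:135107193-135107222, minus strand: acgtgctggtggGCGTGgacgggaggtacg
SPRYD3 coding exon, chr12:53460193-53460222, minus strand: gggccgtccggaACGTGcggaatgtcatgt
SOX12 3′ untranslated exon, chr20:307726-307755, minus strand: caggagggggcgACGTGgggaggggcttgg
CMTM4 3′ untranslated exon, chr16:66652522-66652551, minus strand: gtgcactcatgtACGTGaattcttgcttgc
The copy in TUBGCP2 lay 1 bp from the centre of its site, that in FBXL15 4 bp and that in SPRYD3 81 bp, the farthest of the 8. These distances are to the centre of the merged site, not of a peak. The FBXL15 site was 8096 bp wide and held 26 copies of RCGTG. Of its 9 peaks 5 were centred on exons, so its centre comes from merging.

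The sites were not mainly on internal exons. Of the 373, 180 (48.3%) were centred in an internal exon of their transcript, with a median exon length of 192.5 bp. Last exons held 169 (45.3%), with a median length of 2460 bp, first exons held 15, and 9 were in genes of a single exon. They are therefore called exonic sites below. A site was wider than most internal exons. Median width was 1210 bp, 106 sites (28.4%) lay wholly on exon bases, and in the median site 64.3% of the bases were exonic. A single peak made up 268 of the sites. Of the 105 formed from 2 or more peaks, 70 had every peak centred on an exon, and 4 had none.

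Coding exons carried sites more densely than introns, and 3′ untranslated exons hardly so. Coding sequence held 260 of the exonic sites (69.7%), 3′ untranslated regions 103 and 5′ untranslated regions 10. Per megabase of that kind of sequence in the distance range, this came to 10.5 sites in coding sequence, 9.11 in 5′ untranslated and 3.24 in 3′ untranslated regions, against 2.69 in introns. The ratio to introns was thus 3.92 for coding sequence, 1.20 for 3′ untranslated and 2.41 for exons as a whole. These densities pool all libraries, and sites of 1 library share its depth and chromatin, so no test was made on them. They lean on HCT116, which alone gave 245 of the exonic sites (65.7%) and 40.2% of the intronic sites. The plot of density shows the split by isoform.

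**Figure D1:**
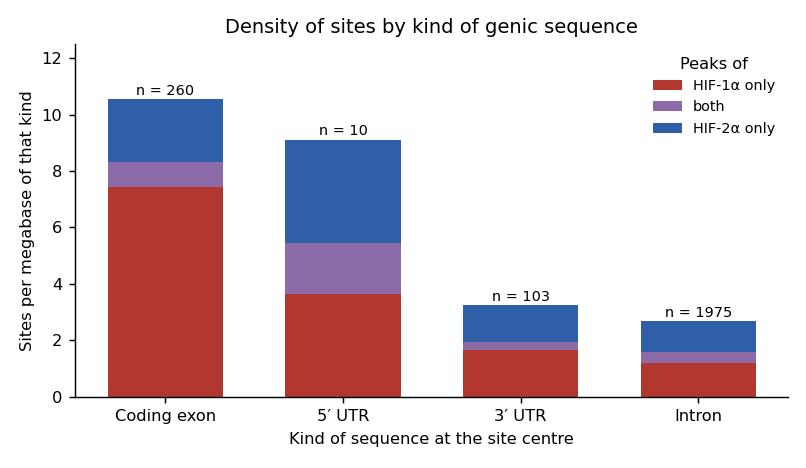
Sites per megabase (vertical axis) of coding exon, 5′ untranslated, 3′ untranslated and intron sequence 1000 to 50000 bp from every protein-coding start, all 16 libraries merged. Colours divide each bar by the isoform whose peaks made up the site, and n is the number of sites. The coding bar reaches 10.5 and the intron bar 2.69 sites per megabase.

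The main comparison asked whether the isoforms differed in the share of their genic sites, exonic and intronic together, that was exonic. HIF-1α had the larger exonic share in all 4 lines. In A549 the HIF-1α libraries had 4 and 7 exonic sites, 7.02 and 7.14% of their genic sites, and the HIF-2α libraries 16 and 14 sites, 4.18 and 4.98%. In HCT116 the HIF-1α libraries had 140 and 167 exonic sites (25 and 26.6%) and the HIF-2α libraries 54 and 37 (16.7 and 17.6%). For PC3 these numbers were 31 and 69 (13.8 and 14.6%) against 9 and 20 (12.7 and 5.99%), and for T47D 12 and 13 (14.6 and 20%) against 6 and 4 (6.45 and 4.04%). Both HIF-1α libraries thus lay above both HIF-2α libraries in each line, although the Wilson 95% intervals of the short lists are wide, for example 2.76 to 16.7% in A549 HIF-1α replicate 2. The difference amounted to 2.5 percentage points for A549, 8.58 for HCT116, 4.88 for PC3 and 12.1 for T47D. Its mean, 7.01 points, was larger than the spread among replicate libraries (exact two-sided permutation test with isoform labels exchanged inside lines, p = 0.00154, the smallest of its 1296 arrangements, adjusted p = 0.0108 over 7 tests). With peaks in both replicates of a group required, the mean was 13.8 points. The 2 libraries of a group then hold the same sites, so no replicate spread remains and no p-value is given. The HIF-2α groups of PC3 and T47D then held 2 exonic sites each.

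**Figure D2:**
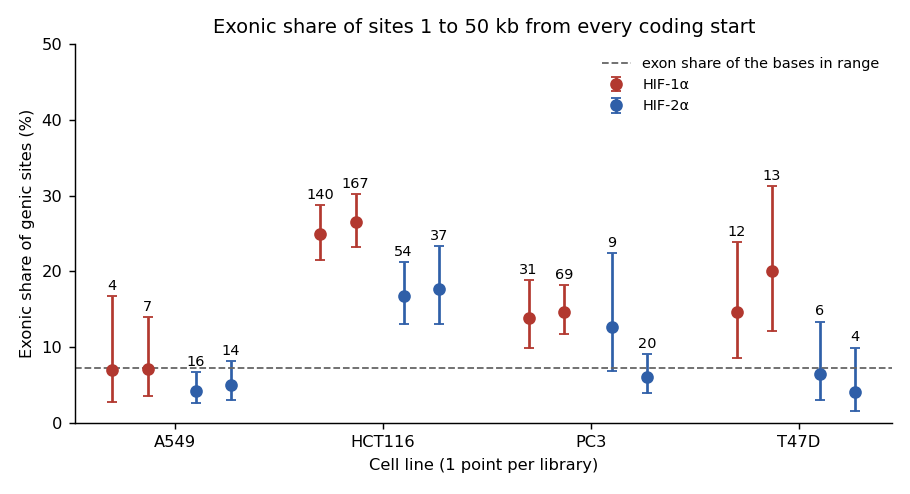
Exonic share of genic sites in percent (vertical axis) for each of the 16 libraries, by cell line and isoform. Bars are Wilson 95% intervals for counting error, numbers above them count exonic sites, and the dashed line is the 7.27% of bases in the distance range that are exonic. HIF-1α points lie above HIF-2α points in each line, and both isoforms of A549 lie below the dashed line.

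Split by CpG content, the isoforms differed among the CpG-rich sites. Among sites with 10 or more CpG in the middle 200 bp, 176 of the 431 with a HIF-1α peak were exonic (40.8%) and 45 of the 151 with a HIF-2α peak (29.8%), and over libraries HIF-1α was 10.6 points higher (exact permutation p = 0.017). Among sites with at most 9 CpG the shares were 9.75% and 8.25%, and over libraries the difference was 1.04 points (exact permutation p = 0.434). The split was chosen after the values were seen, and the difference between the strata was not itself tested.

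The comparison was repeated by distance to a start. Exonic shares fell with distance for both isoforms, as did the exonic share of the bases. Between 1000 and 5000 bp, 161 sites were exonic and 555 intronic (22.5% exonic, against 9.70% of bases), between 5000 and 20000 bp 159 and 827 (16.1% against 7.78%) and between 20000 and 50000 bp 53 and 593 (8.20% against 5.37%). The median over HIF-1α libraries was 23.3, 12.8 and 7.97% in the 3 ranges and that over HIF-2α libraries 11.5, 7.56 and 4.82%. Averaged with equal weight on the ranges, HIF-1α stood 6.01 points above HIF-2α (exact permutation p = 0.00154).

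**Figure D3:**
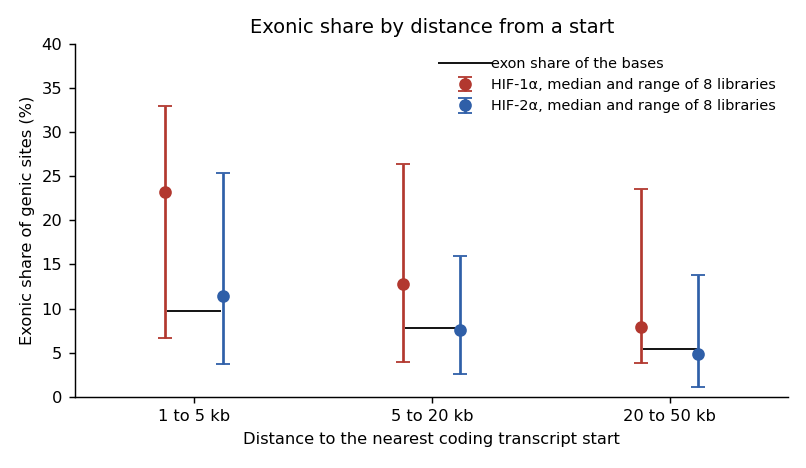
Exonic share of genic sites in percent (vertical axis) in 3 ranges of distance to the nearest protein-coding start. Points are medians and bars the lowest and highest of the 8 libraries of an isoform, and the black marks are the exonic share of the bases. The HIF-1α median lies above the HIF-2α median in each range, and the ranges of the libraries overlap.

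The exonic share lay above that of the bases in some groups and below it in others. The exonic share of genic sites exceeded the 7.27% of the bases by 5.31 points on average over the 8 groups, which was not distinguishable from 0 (two-sided exact sign-flip permutation p = 0.102, adjusted p = 0.178). Without HCT116 the excess was 2.36 points (exact permutation p = 0.406). Group means ran from 2.69 points below the bases in A549 HIF-2α to 18.5 points above in HCT116 HIF-1α, and 5 of 8 groups were above. HCT116 supplied most of the sites, with a peak at 300 of the 373 exonic and at 993 of the 1975 intronic sites. Of the exonic sites, 245 (65.7%) were found in HCT116 alone, 41 in PC3 alone, 20 in A549 alone and 10 in T47D alone. In introns the share found in HCT116 alone was 40.2%.

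By isoform, 240 exonic sites (64.3%) had peaks of HIF-1α only, 100 (26.8%) of HIF-2α only and 33 (8.85%) of both. Over all 11664 sites these classes made up 60.9, 25.2 and 13.8%, so the exonic sites were near that background in the first pair of classes. Intronic sites were made up differently, with 890 of HIF-1α only (45.1%), 822 of HIF-2α only (41.6%) and 263 of both (13.3%). Within exons the class of HIF-1α only was 70.4% of coding sites and 51.5% of 3′ untranslated sites. The number of exonic sites per library was 0.26 higher on the log10 scale for HIF-1α, a difference that did not exceed the spread (exact permutation p = 0.1, adjusted p = 0.178). A549, where HIF-2α libraries held more, was the exception. Without it the difference was 0.49 (exact permutation p = 0.00926, the smallest its 216 arrangements allow). Without HCT116, PC3 or T47D it was 0.16, 0.16 and 0.21 (exact permutation p = 0.426, 0.343 and 0.287). Whole lists ran in the same direction in every line, with 380 and 629 HIF-1α against 1382 and 1056 HIF-2α peaks in A549. With the same number of best peaks from each library the difference was 0.16 (exact permutation p = 0.088). How far list length enters the count difference was not tested.

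Exonic sites were richer in CpG than intronic ones in every library. The middle 200 bp held 12.1 CpG on average in exonic and 5.63 in intronic sites, while windows 5000 bp to each side held 4.62 and 3.57. In HIF-1α libraries the mean per exonic site was 10.5 and 16.4 (A549), 15.3 and 14.8 (HCT116), 13.5 and 14.9 (PC3), and 14.8 and 14.9 (T47D). In HIF-2α libraries it was 6.25 and 5.93 (A549), 11.4 and 10.1 (HCT116), 5.67 and 8.10 (PC3), and 7.67 and 5.25 (T47D). HIF-2α values were therefore lower in each line, without overlap. Over the 8 groups the exonic mean exceeded the intronic mean by 5.24 CpG, in 8 of 8 groups (two-sided exact sign-flip permutation p = 0.00781, the smallest of 256, adjusted p = 0.0273). This excess was itself 4.68 CpG larger in HIF-1α than in HIF-2α libraries and larger in 4 of 4 lines (exact permutation p = 0.00154, adjusted p = 0.00617 over 4 tests added after the data were seen). With peaks in both replicates of a group required it was 2.88 CpG, without a p-value because replicates then hold the same sites.

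RCGTG was present at 55.2% of exonic and 45.5% of intronic centres, at 50.5% of the centres of all sites, and in 30.4% of the windows beside exonic sites. ACGTG was found at 31.6% of exonic and 27.0% of intronic centres and GCGTG at 41.0% and 26.5%. Over the 8 groups the exonic excess of RCGTG was 7.54 points and was not distinguishable from 0 (two-sided exact sign-flip permutation p = 0.227, adjusted p = 0.317). Within broad classes of CpG count it was -1.55 points (exact permutation p = 0.773). The top class, 10 or more CpG, had no upper limit and held 202 exonic sites, so counts could still differ within it.

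That average joined values that differed between the isoforms. All 8 HIF-1α libraries had RCGTG more often at exonic than at intronic centres, whereas 2 of the 8 HIF-2α libraries did. In A549 the HIF-1α libraries had it at 75 and 85.7% of exonic and 49.1 and 59.3% of intronic centres, and the HIF-2α libraries at 37.5 and 35.7% of exonic and 53.4 and 61.0% of intronic centres. In T47D the exonic values were 83.3 and 76.9% for HIF-1α and 50 and 50% for HIF-2α, and in PC3 61.3 and 71.0% against 44.4 and 45%. HCT116 had 65.7 and 64.1% for HIF-1α, and its HIF-2α libraries stood apart from each other at 51.9 and 32.4%. The exonic minus intronic difference was 25.6 points larger for HIF-1α, in 4 of 4 lines (exact permutation p = 0.00309, adjusted p = 0.00617 over the 4 added tests). Within the same broad classes of CpG count the mean difference between isoforms was 24.5 points (exact permutation p = 0.00154). Some groups rest on 4 to 16 exonic sites, and the call was lost with the 275 best peaks of each library (15.1 points, exact permutation p = 0.0633) and at 5000 bp or more from every start (21.8 points, exact permutation p = 0.0787). With peaks in both replicates of a group required it was 14.2 points, without a p-value because replicates then hold the same sites.

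**Figure D4:**
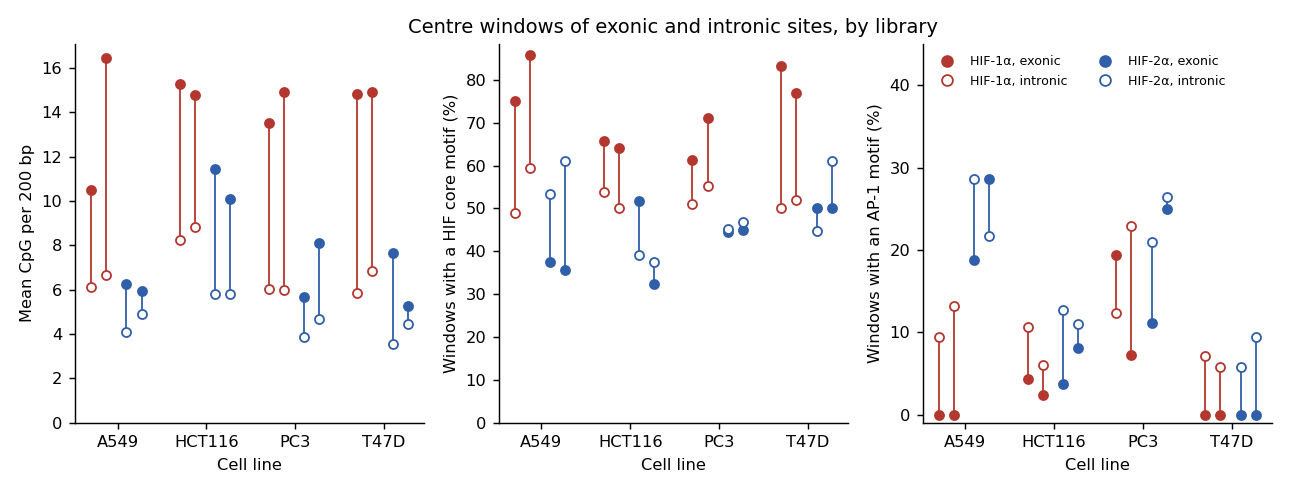
Mean CpG count (left), share of centres with the HIF core motif (middle) and share with the AP-1 motif (right), both in percent, in the middle 200 bp of exonic (filled) and intronic (open) sites of each library. Lines join the classes of 1 library. CpG counts are higher in exonic sites throughout, and in the middle panel the filled points lie above the open ones in all HIF-1α libraries and in 2 HIF-2α libraries.

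TGANTCA, the consensus of AP-1, a factor of the JUN and FOS families that binds many enhancers, was rarer at exonic sites. It occurred at 17 exonic centres (4.56%) and 287 intronic centres (14.5%), compared with 8.96% of all sites, and at 5.09 and 5.32% of the windows beside them. The motif is its own reverse complement, so that a single search covers both strands. Its share was lower in exonic than in intronic sites in 14 of 16 libraries and 8 of 8 groups, with a mean exonic minus intronic difference of -5.97 points (exact two-sided sign flips, permutation p = 0.00781, adjusted p = 0.0104 over the 4 added tests). The A549 HIF-1α and all T47D libraries had the motif at 0 exonic sites, among 4 to 13 each. At their intronic shares of 5.75 to 13.2% such zeros could readily arise, so these signs weigh little. Within the broad classes of CpG count the mean difference was -4.86 points (exact permutation p = 0.00781). It was -4.93 points without A549 HIF-2α replicate 2 (exact permutation p = 0.0547) and -4.56 without PC3 HIF-1α replicate 2 (p = 0.0625), so that the call rested on these libraries. Among sites with peaks in both replicates of a group, the mean difference over the 8 groups turned to 1.18 points (exact permutation p = 0.820). Pooled over groups it did not turn, with the motif at 9 of 89 exonic sites (10.1%) and 78 of 446 intronic sites (17.5%).

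Exonic peaks ranked no higher and recurred no more often than intronic ones beyond the spread. Scores were turned into percentiles within each library, and the median of exonic sites was 2.97 percentile points above that of intronic sites over the 8 groups (two-sided exact sign-flip permutation p = 0.555, adjusted p = 0.555). The exonic minus intronic percentile was 15.5 points higher for HIF-1α than for HIF-2α (exact permutation p = 0.034, adjusted p = 0.034 over the 4 added tests), in 3 of 4 lines. A549 had the largest value, 47.6 points, and 4.75 points remained without it (exact permutation p = 0.204). The call was also lost without HCT116 (16.2 points, exact permutation p = 0.157), without PC3 (18 points, exact permutation p = 0.0926) and without any of 5 single libraries. Of the exonic sites of a group, the share with a peak in both replicates was 2.51 points above the intronic share (p = 0.523 in the same exact test, adjusted p = 0.555). It was 71 of 236 exonic sites in HCT116 HIF-1α (30.1%, against 22.8% of intronic sites), 9 of 16 in T47D HIF-1α (56.2% against 35.6%), 8 of 22 in A549 HIF-2α (36.4% against 45.7%) and 6 of 85 in HCT116 HIF-2α (7.06% against 17.6%). HIF-1α groups of A549 and PC3 had 37.5% against 26.3% and 29.9% against 24.9%. HIF-2α groups of PC3 and T47D had 7.41% against 11.9% and 25% against 24.7%. A difference between isoforms in this overlap was not tested. Most exonic sites were single observations: 268 (71.8%) had a peak in 1 library, as had 71.1% of intronic sites, and 89 (23.9%) had peaks in both replicates of a group. Peaks in 2 lines were found at 47 exonic sites, in 3 lines at 7 and in all 4 at 3.

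The site found in the most libraries was in the last exon of SEC14L2, which encodes a lipid-binding protein. It lies at chr22:30818725-30820807, is centred in the 3′ untranslated region and is 1845 bp from the nearest start, that of the neighbouring gene MTFP1. It had a peak in 14 libraries, all 8 of HIF-1α and 6 of HIF-2α. HIF-1α scores were 102 and 215 (A549), 1248 and 639 (HCT116), 256 and 677 (PC3), and 344 and 254 (T47D). HIF-2α scores were 127 and 132 for A549, 186 and 193 for HCT116, 150 in PC3 replicate 2 and 109 in T47D replicate 1. No RCGTG lay in its middle 200 bp, although the whole site held 10 copies, the nearest 164 bp from the centre.

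SLC8A3, a sodium-calcium exchanger gene, held the coding site found in the most libraries. Its centre lies in the coding part of exon 7 of 7 (exon at chr14:70510932-70513040, site at chr14:70512090-70513729), 33987 bp from the nearest protein-coding start and 14746 bp from the nearest start of any transcript. All 8 HIF-1α libraries had a peak there, with scores of 194 and 395 (A549), 1717 and 1306 (HCT116), 474 and 1141 (PC3), and 724 and 789 (T47D). HIF-2α peaks were found in 3 libraries, with scores of 84.5 and 87.3 in HCT116 and 54.0 in PC3 replicate 2. Scores are not comparable between libraries. Within their own libraries the HIF-1α peaks stood between the 87.7th and 99.5th percentiles and the HIF-2α peaks between the 15.4th and 78.5th. Its middle 200 bp held 13 CpG and 4 copies of RCGTG, of which the nearest to the centre is printed above.

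KLHL31, a kelch-like gene, had a coding site in its last exon (chr6:53516031-53517645) with peaks in 9 libraries, 6 of HIF-1α and 3 of HIF-2α. This was the third member, after SEC14L2 and SLC8A3, with peaks in all 4 lines. In A549 its scores were 118 and 75.6 for HIF-2α and 85.0 in the HIF-1α library that had a peak. Its centre held 27 CpG and 4 copies of RCGTG. PRR7, SOX12 and PTPRN had sites in 8 libraries each, with 6 HIF-1α libraries from HCT116, PC3 and T47D in every case. The PRR7 site (chr5:176880349-176883404) was centred in a 5′ untranslated exon, and its HIF-1α scores were 579 and 532 (HCT116), 136 and 147 (PC3) and 63.6 and 131 (T47D). SOX12, a transcription factor gene of a single exon, held its site (chr20:306760-308630) in the 3′ untranslated region, 1499 bp from its own start. In PTPRN, which encodes a protein of secretory granules, the exon at the site centre is 65 bp long and 2 of the 8 peaks were centred on exons, so that its place on an exon comes from merging (chr2:220163119-220164485).

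**Figure D5:**
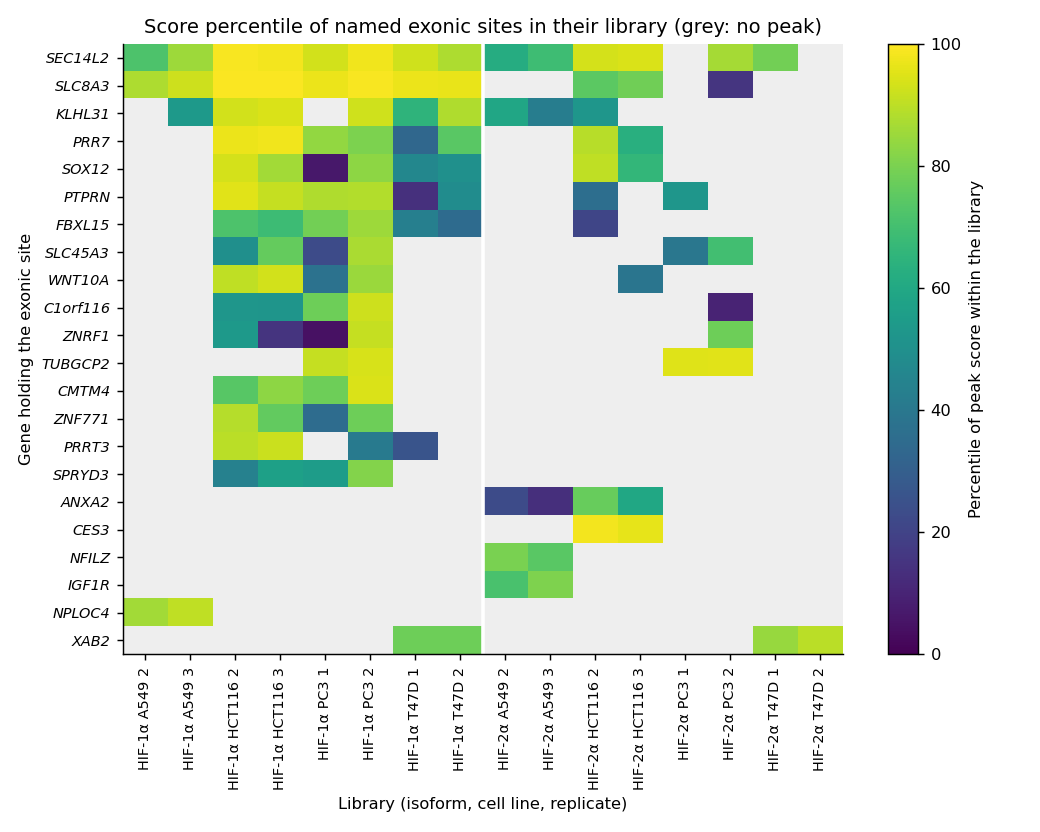
Percentile of peak score within the library (colour) for the named exonic sites (rows, by gene) in the 16 libraries (columns, HIF-1α left of the white line). Grey cells have no peak. SEC14L2 and SLC8A3 are filled across all 8 HIF-1α columns, and most other rows are filled in HCT116 and PC3.

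FBXL15, SLC45A3, WNT10A, C1orf116 and ZNRF1 completed the sites of 5 or more libraries, with HIF-1α peaks in both HCT116 and both PC3 libraries at each. WNT10A, which encodes a secreted WNT ligand, held its site in the coding part of its last exon (chr2:219756811-219758380). HIF-1α scores there were 234 and 239 in HCT116 and 62.1 and 175 in PC3, and the only HIF-2α peak scored 56.8 in HCT116 replicate 3. TUBGCP2, a component of the γ-tubulin complex, had a site over coding exon 6 of 18 (chr10:135106459-135107959) with peaks in all 4 PC3 libraries and in none of another line. Its scores were 210 and 331 for HIF-1α and 162 and 267 for HIF-2α, which stood between the 91.2nd and 95.4th percentiles of their libraries. Of the 14 sites with 4 libraries it had the highest mean percentile, which placed it among the 12 sites with peaks in the most libraries.

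Sites of HIF-1α alone reached at most 4 libraries, and those of the highest mean percentile among them were in CMTM4, ZNF771, PRRT3 and SPRYD3. CMTM4, which encodes a membrane protein of the MARVEL family, had its site in the 3′ untranslated region (chr16:66651984-66653150) with scores of 121 and 139 in HCT116 and 108 and 337 in PC3. The ZNF771, PRRT3 and SPRYD3 sites were in coding exons. Sites of HIF-2α alone reached 4 libraries in ANXA2, the gene of a calcium-dependent membrane-binding protein. There the site lay over a 5′ untranslated exon (chr15:60684818-60685949) with scores of 62.7 and 55.1 in A549 and 87.4 and 64.9 in HCT116, and with no RCGTG at its centre. CES3, a carboxylesterase gene, had a HIF-2α site in HCT116 alone (coding exon 10 of 13, chr16:67004575-67005639, scores 464 and 265). NFILZ had one in A549 alone, over a 5′ untranslated exon (chr19:8747430-8748466, scores 226 and 156), and so had IGF1R, the receptor of insulin-like growth factor 1 (coding exon 4 of 21, chr15:99439088-99441006, scores 169 and 190). The NFILZ site held an RCGTG at its centre, whereas those of CES3 and IGF1R did not. At NFILZ and at IGF1R, 1 of the 2 peaks was centred on an exon. Among sites of a single line, NPLOC4, a cofactor of the VCP segregase, ranked highest in A549 with HIF-1α scores of 183 and 323. XAB2, a splicing and repair factor, ranked highest in T47D with 144 and 149 for HIF-1α and 148 and 236 for HIF-2α. Of the 4 peaks at XAB2, 2 were centred on an exon.

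Genes with functions linked to HIF were looked up by list. Of 86 genes in lists of HIF-related functions, 4 had an exonic site and 20 an intronic one in the distance range, to be read beside 374 (1.89%) and 1628 (8.22%) of all 19794 protein-coding genes. None of the 22 genes of glycolysis and glucose uptake had an exonic site, while 5 had an intronic one (SLC2A1, SLC2A3, HK2, PFKP and PKM). The 4 genes were BHLHE41, a hypoxia-induced repressor, ITGB4, an integrin subunit, JUN, an AP-1 subunit, and VEGFA, the angiogenic growth factor. Each had a peak in a single library, in HCT116. VEGFA had a HIF-2α peak with a score of 77.2 in replicate 3 over its 3′ untranslated region (chr6:43752856-43753418), with a copy of RCGTG 16 bp from the centre. The HIF-1α scores of the others in replicate 2 were 65.7 at BHLHE41, 63.9 at ITGB4 and 62.3 at JUN. Among all genes SPTBN4 had 3 exonic sites, and APOLD1, IRS1, KCNG1, PLXNB2, PTPRN and SH3PXD2A had 2 each.

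Many exonic sites away from protein-coding starts were near the start of some other transcript. For 110 of them (29.5%) a start of a non-coding or other transcript lay within 1000 bp, compared with 325 intronic sites (16.5%). That distance was 16 bp at SPRYD3, 44 bp at PRRT3, 78 bp at PTPRN and 347 bp at WNT10A. The nearest protein-coding start belonged to a gene other than the host for 96 exonic sites (25.7%) and 229 intronic sites (11.6%). With sites within 1000 bp of any such start left out, the isoform difference in exonic share was 6.7 points (exact permutation p = 0.00154).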

How the data were processed

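ChIP-seq peak lists of 16 libraries were used, grouped by the cell line and antibody in the labels into 8 groups of 2. The submitters' processing notes name Trim Galore 0.3.3, BWA 0.7.5a-r405, SAMtools 0.1.19, bedtools 2.17.0, Picard 2.0.1 and MACS, on GRCh37 (hg19). Peaks were called by the authors in each library, and the deposited lists give for each peak an interval and a score of the peak caller, whose scale is not given in the sources used here. Scores served only to rank peaks within a library, and are printed as deposited. The lists hold no read totals, so depth is unknown, and Wilson intervals cover counting error only. Replicate lists shared 0 identical intervals. Nothing in the labels states that replicates were separate cultures, so p-values of the isoform comparisons measure only the spread between these libraries. The sign flips use 8 group values, so their p-values measure the spread between groups and not between replicates. The 2 groups of a line share that line and many merged sites, so the 8 groups are not independent.

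Of 23398 peaks, 29 off chromosomes 1 to 22, X and Y were left out. Peaks overlapping by 1 bp were merged. Exons, transcript starts and gene names came from GENCODE release 44 mapped to GRCh37, with 89204 protein-coding transcripts. Motifs and CpG were counted over 200 bp around each centre, and over 200 bp lying 5000 bp away on either side. A site counted for a library when it held a peak of that library. Python 3.11.15, numpy 2.4.6, pandas 2.3.3, pysam 0.24.0 and matplotlib 3.10.9 were used.

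Isoforms were compared by exchanging labels of the 4 libraries within each line (1296 arrangements), and exonic with intronic values by sign flips over group means (256), all exact and two-sided, with Benjamini-Hochberg adjustment over 7 tests and a threshold of 0.05. Functions were tested on simulated data. A further 4 tests, of the isoform difference in RCGTG, CpG and percentile and of TGANTCA, were added after seeing the data and adjusted together. The splits by CpG count were also chosen after seeing the data. Alternatives changed the score threshold, merging, distance limits, transcripts, windows, units and libraries.

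Named were the 12 sites with peaks in the most libraries, the 4 with most libraries of each isoform alone, the best-ranked site of each line alone with both replicates of a group, and up to 3 per gene list, with ties broken by the mean percentile of score. Members, gene lists and tests were chosen with earlier results of these data known.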

Additional observations from a re-analysis of the deposited data

Results flagged for a closer look

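The isoforms differed in how exonic compared with intronic sites in 3 measures, each tested directly. The exonic minus intronic share of centres with RCGTG was 25.6 percentage points higher for HIF-1α (adjusted exact permutation p = 0.00617), the CpG count 4.68 higher (adjusted exact permutation p = 0.00617) and the score percentile 15.5 points higher (adjusted exact permutation p = 0.034). These tests were added after the data were seen. The percentile difference was -6.84 points in T47D, and 4.75 points without A549 (exact permutation p = 0.204). Its call was lost in 16 of 32 alternatives, against 2 of 34 for RCGTG and 0 of 32 for CpG.

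In single lines, both libraries of an isoform lay on 1 side of 0 and both libraries of the other on the opposite side, which was not tested with 2 libraries against 2. For RCGTG the mean difference in A549 was 26.2 points for HIF-1α and -20.6 for HIF-2α, and in PC3 13 and -1.27. The PC3 HIF-2α libraries stood at -0.72 and -1.82 points, close to 0, with 9 and 20 exonic sites, so their sign weighs little. For the score percentile it was 26.2 and -21.4 points in A549, where the HIF-1α libraries held 4 and 7 exonic sites, and 4.41 and -8.73 in HCT116.

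The number of exonic sites also ran in opposite directions between lines, which was not tested. On the log10 scale HIF-1α minus HIF-2α was -0.45 for A549, 0.53 for HCT116, 0.54 for PC3 and 0.41 for T47D, without overlap of the libraries in any of them. Whole lists were ordered likewise, with 380 and 629 HIF-1α against 1382 and 1056 HIF-2α peaks in A549.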

How the results depend on the processing

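Of 347 alternatives, 313 kept the direction and the side of the threshold. The exonic share of HIF-1α minus HIF-2α did so in 34 of 35, with values from 5.26 to 13.8 points, and fell to 1.04 points in sites with fewer than 10 CpG. With 1 library left out it was 6.17 to 7.85 points. A replicate block, pairing libraries by number, gave p = 0.00781 for it (exact permutation, the smallest of 256), and changed the call only for the score percentile difference between isoforms (15.5 points, exact permutation p = 0.0781). Each group has 2 libraries and the labels do not say what a number shares, so the numbers are not known to pair libraries. With both replicates required, the libraries of a group hold the same sites. Calls on isoform differences in share, count, CpG and RCGTG then measure no replicate spread, though they are counted above.

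The excess over the exonic share of bases passed the threshold with coding bases only (5.35 points, exact permutation p = 0.0469). The log10 count difference passed at scores above the median (0.47), with representative transcripts (0.31), with coding bases (0.38) and without A549 (0.49). It also passed with both replicates required (0.59), where no replicate spread is left to measure. The exonic CpG excess of 5.24 could not pass with the 4 lines as units (exact sign-flip permutation p = 0.125, the smallest possible).

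Signs turned for the RCGTG excess within CpG classes (-1.55 points, and -1.53 with ACGTG alone), for the score percentile with both replicates required (-0.45), for replicate overlap with the 275 best peaks (-10.3) and without T47D (-0.17), and for TGANTCA with both replicates required (1.18). The RCGTG difference between isoforms lost its call with the 275 best peaks (15.1) and at 5000 bp or more (21.8). The score percentile difference between isoforms lost it at scores above the median (4.62), with the 275 best peaks (3.18), with the best-ranked centre (10.5), unmerged (14.9), from 2000 bp (14.4) or 5000 bp (12.9), with both replicates required (4.47), and without A549 (4.75), HCT116 (16.2) or PC3 (18). Leaving out 1 library gave 11.9 to 19 for it and -7.39 to -4.56 for TGANTCA, and the percentile difference lost its call without A549 HIF-2α replicate 2, replicate 3 of either isoform in HCT116 or replicate 1 of either in T47D (exact permutation p = 0.0556 to 0.0617). The causes were not tested. The lists hold no depth, and A549 and T47D groups rest on 4 to 16 exonic sites a library.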
